A study of Mus musculus with 12 samples.

Results

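The genes described here are 8 that encode brakes on mTORC1, complex 1 of the kinase mTOR, and the 4E-binding proteins, out of 36047 genes counted in the liver of 12 male C57Bl/6J mice. They were chosen by symbol and are Ddit4, Sesn1, Sesn2, Sesn3, Deptor, Eif4ebp1, Eif4ebp2 and Eif4ebp3. All 8 passed the filter on low counts that left 14670 genes to test. Each group held 3 single-housed adult mice, 5 to 6 months old, fed for 7 days on a regular-fat control diet (RF.Ctrl), a regular-fat diet restricted in sulfur amino acids (RF.SAAR), a high-fat control diet (HF.Ctrl) or a high-fat restricted diet (HF.SAAR). All 4 diets lacked cysteine, the restricted ones held less methionine with glutamic acid in its place, and every mouse was deprived of food for 4 h before death. The study, which also measured protein synthesis, labelled its mice with deuterated water. The regular-fat and high-fat diets came from different suppliers, so that fat content and supplier cannot be told apart.

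mTORC1 promotes protein synthesis when amino acids and growth factors are plentiful. Among its best known substrates are the 4E-binding proteins, small repressors that hold the cap-binding factor eIF4E until they are phosphorylated. The brakes act upstream of the kinase or on it: Ddit4 (also known as REDD1) works through the TSC complex, the sestrins bind GATOR2 and so restrain the Rag GTPases, and Deptor binds mTOR itself. Several of these genes are themselves induced by stress. Ddit4 and Sesn2 are known targets of ATF4, the transcription factor of the integrated stress response, Ddit4 is also induced by glucocorticoids, Sesn1 is a p53 target, and Sesn1 and Sesn3 are FoxO targets. On GRCm38, Ddit4 lies at chr10:59949669-59951834 and Eif4ebp2 at chr10:61428491-61452661, both on the minus strand, and Sesn2 at chr4:132492032-132510501 on the minus strand. Sesn3 lies at chr9:14275067-14333101, Deptor at chr15:55112317-55259271 and Eif4ebp1 at chr8:27260329-27276674, all on the plus strand.

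Total estimated counts, the reads that kallisto assigns to transcripts, ranged from 16203094 to 21230092 per mouse. Hepatocyte RNA prevailed in every mouse, with the 8 hepatocyte markers together at between 83022 and 110023 normalized CPM, which are counts scaled to a common library size with TMM factors. Their summed level was 94841 to 110023 in RF.Ctrl and 83022 to 90640 in RF.SAAR, without overlap, and overlapped on the high-fat diets. RNA of pancreatic acinar cells was uneven, with the sum of 12 acinar markers between 35.5 and 14587 CPM, and the 3 highest mice were HF.Ctrl replicate 2, HF.SAAR replicate 2 and HF.SAAR replicate 3. The sum of the blood cell markers was 431 to 479 CPM in RF.Ctrl and 229 to 283 in RF.SAAR, again without overlap, and overlapped on the high-fat diets. No marker of the 9 lists was at 0 in every mouse, and the part of these cell types in the values below was not tested. In bulk liver, fewer cells of a type and less RNA per cell cannot be told apart.

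Per length, in the deposited TPM (transcript counts per effective length, scaled to the same sum in each mouse), the 4E-binding proteins were the most abundant of the 8 genes and the sestrins the least. The mean over the 12 mice was 79.96 ± 35.8 TPM (SD) for Eif4ebp3, 38.0 ± 10.4 for Eif4ebp2 and 36.9 ± 13.6 for Eif4ebp1. Deptor followed at 18.8 ± 3.87 TPM, Ddit4 at 9.25 ± 7.21, Sesn1 at 5.37 ± 1.21, Sesn3 at 2.21 ± 0.439 and Sesn2 at 1.70 ± 0.672. In this order the ranges of all neighbours overlapped except those of Sesn1, at 3.26 to 7.29 TPM, and Sesn3, at 1.39 to 2.91 TPM. Sesn2 lay above 30.3% of the tested genes and Eif4ebp3 above 92.6%. Sesn2 and Ddit4 rested on the fewest reads, as few as 69 estimated counts in a mouse for each, whereas Eif4ebp2 had at least 2768.

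**Figure D1:**
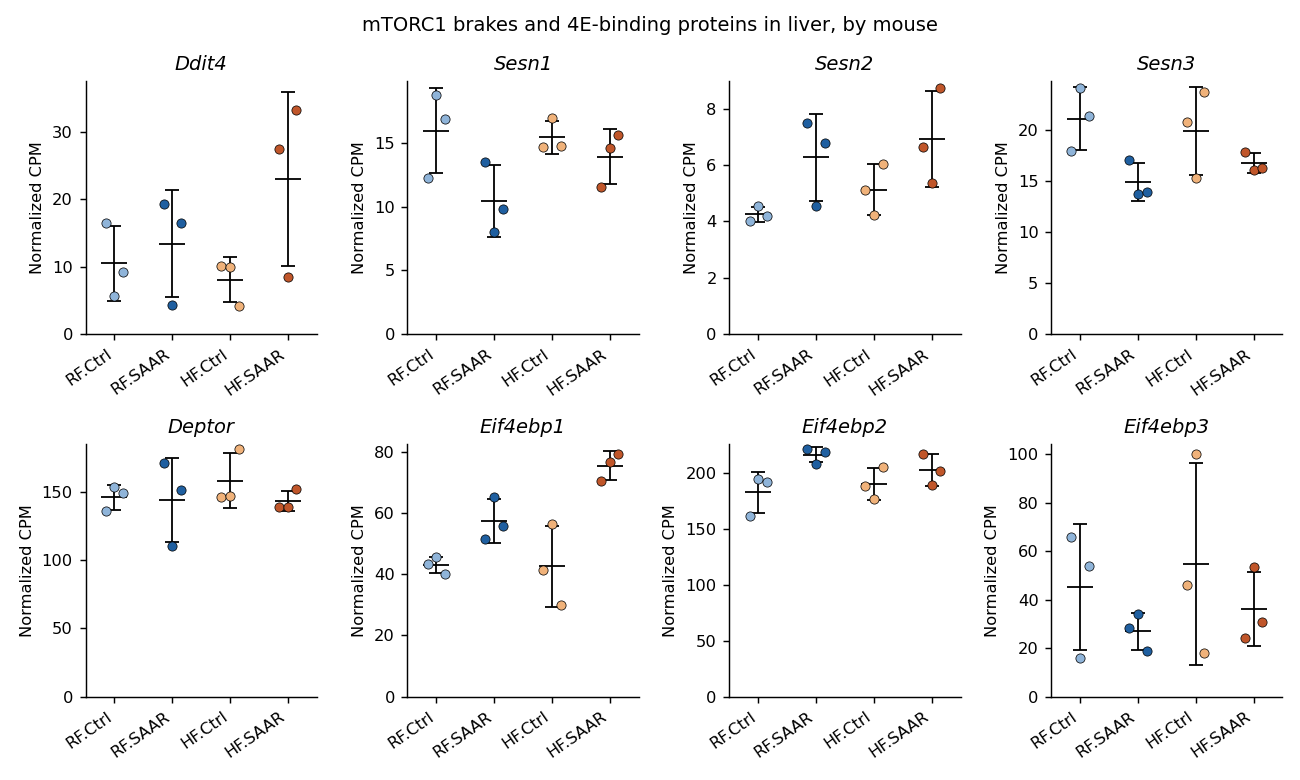
Normalized CPM (y axis, from 0) of the 8 genes in each mouse, by diet group (x axis), with points for mice and bars for the mean ± SD of 3 mice. The HF.SAAR mice sit between 70.5 and 79.6 CPM for Eif4ebp1, above all other mice. Eif4ebp3 spreads from 16.01 CPM in an RF.Ctrl mouse to 99.9 CPM in an HF.Ctrl mouse.

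The main question put to these data was whether 7 days of sulfur amino acid restriction changed the brakes and the repressors at the mRNA level, and whether dietary fat altered that. Eif4ebp1 was the only gene of the 8 that passed the threshold, an adjusted p under 0.05 in edgeR's quasi-likelihood test, and it was higher in restricted mice. In RF.SAAR vs. RF.Ctrl none of the 8 passed, against 1.49% of all genes tested, although 5 had an unadjusted p under 0.05, against 13.6% of all genes. DESeq2 called 0 of the 8 there, against 4.85% of its genes. In HF.SAAR vs. HF.Ctrl 1 of the 8 passed, against 1.97% of all genes, and it was also the only one with an unadjusted p under 0.05, against 12.4%. In SAAR vs. Ctrl averaged over fat 1 of 8 passed, against 6.92% of all genes, and 5 had an unadjusted p under 0.05, against 20.3%. In each of these comparisons 4 of the genes were higher and 4 lower in restricted mice, with medians of 0.11, -0.03 and 0.04 on the log2 scale beside medians within 0.01 of 0 over all genes.

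**Figure D2:**
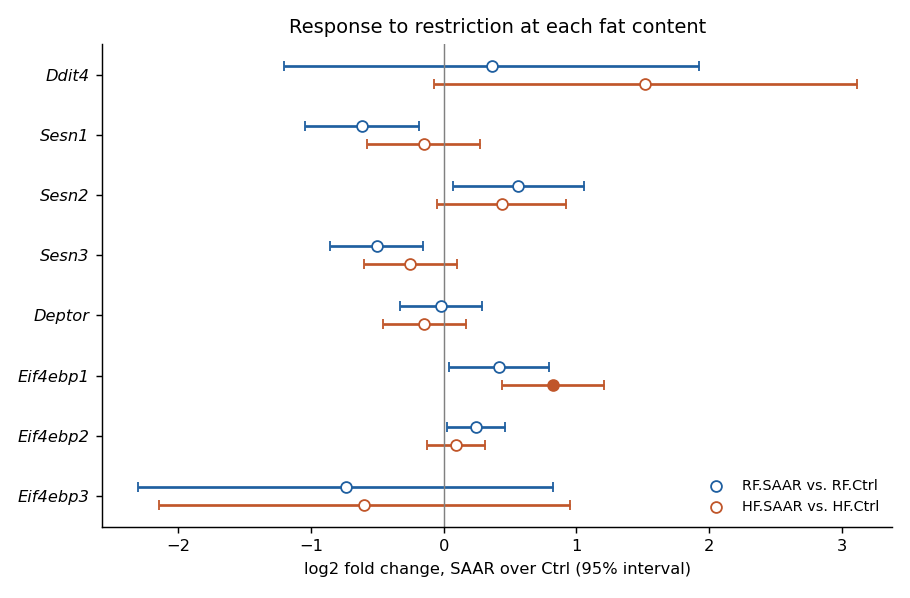
The log2 fold change of each gene in restricted over control mice (x axis) with its 95% interval from the edgeR fit, in blue for the regular-fat and in orange for the high-fat diets, 3 mice a group, with filled points for an adjusted p under 0.05. Only the point for Eif4ebp1 on the high-fat diets, at 0.83, is filled, and the intervals of Ddit4 and Eif4ebp3 are the widest.

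Eif4ebp1 encodes 4E-BP1, the best studied repressor of eIF4E, and stood between 70.5 and 79.6 CPM in HF.SAAR. The 3 HF.Ctrl mice had 41.6, 56.4 and 30.1 CPM, and the 3 HF.SAAR mice 70.5, 76.8 and 79.6 CPM. On the regular-fat diets the controls had 43.4, 45.7 and 40.2 CPM and the restricted mice 51.5, 65.4 and 55.8 CPM. Neither pair of groups overlapped, though HF.Ctrl replicate 2 lay above RF.SAAR replicates 1 and 3, and the 2 control groups differed little in their means, 43.1 ± 2.77 and 42.7 ± 13.2 CPM (SD, n = 3 each). The log2 fold change was 0.83 (SE 0.18, edgeR adjusted p = 0.0307) on the high-fat diets and 0.42 (SE 0.18, adjusted p = 0.312) on the regular-fat diets. Averaged over fat it was 0.62 (SE 0.12, adjusted p = 0.00966), a 1.54-fold higher level with a 95% interval of 1.28 to 1.85. The difference between the 2 responses, 0.41 with a 95% interval of -0.13 to 0.94, did not pass the test (edgeR adjusted p = 0.999), and so a larger response on the high-fat diets was not shown. Among restricted mice, Eif4ebp1 was higher on the high-fat diet in 3 of 3 mice, by 0.39 (SE 0.18), with an unadjusted edgeR p of 0.0422 and an adjusted p of 0.864. In that comparison all 12 acinar markers were higher at an unadjusted edgeR p under 0.05, beside 5.59% of all genes, and none passed after adjustment. The acinar sum was 1448, 5233 and 57.9 CPM in the HF.Ctrl mice and 56.7, 3003 and 14587 in the HF.SAAR mice. Eif4ebp1 ranked the mice as this sum did within both high-fat groups and RF.SAAR, but not within RF.Ctrl. The part of acinar RNA in these values was not tested.

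The call on the high-fat diets hung on most of the mice compared. Without HF.Ctrl replicate 1 the edgeR adjusted p was 0.127, without HF.Ctrl replicate 3 it was 0.0638, and without HF.SAAR replicate 1, 2 or 3 it was 0.0704, 0.0814 and 0.102. Without the 3 mice highest in acinar RNA the log2 fold change was 0.96 and the adjusted p 0.121. The summed level of the cholangiocyte markers also separated the high-fat groups, at 45.1 to 62.6 CPM in HF.Ctrl and 36.2 to 42.4 CPM in HF.SAAR, and its part in the result was not tested. The averaged call was kept in all 12 fits that left out 1 mouse, with adjusted p between 0.00115 and 0.0305, and in the other 9 alternatives run.

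**Figure D3:**
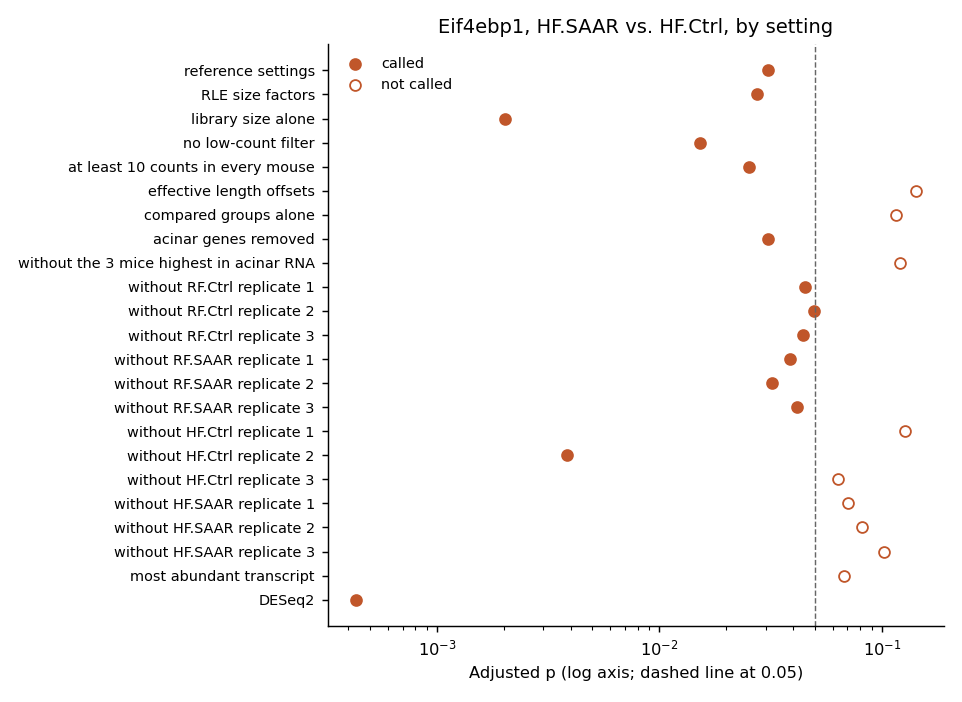
Adjusted p of Eif4ebp1 in HF.SAAR vs. HF.Ctrl (x axis, log scale) under the reference settings and each alternative (rows), with the dashed line at 0.05 and filled points for calls. Leaving out any HF.SAAR mouse moves the point past the line, whereas DESeq2 gives an adjusted p of 0.000431.

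Eif4ebp2 encodes 4E-BP2 and was even within groups, with a coefficient of variation of 3.16% to 9.98%. It stood at 162, 195 and 192 CPM in RF.Ctrl and at 222, 209 and 219 CPM in RF.SAAR. Every RF.SAAR mouse was thus above every RF.Ctrl mouse, but the log2 fold change of 0.24 (SE 0.10) did not pass (edgeR adjusted p = 0.304). In HF.Ctrl the values were 189, 177 and 205 CPM and in HF.SAAR 218, 190 and 202 CPM, which overlapped, with a log2 fold change of 0.09 and a 95% interval of -0.13 to 0.31. A change of more than 1.24-fold on the high-fat diets thus lay outside the interval.

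Eif4ebp3 encodes 4E-BP3 and differed more between mice of 1 group than between groups. The RF.Ctrl mice had 65.7, 16.01 and 53.7 CPM and the RF.SAAR mice 28.2, 33.9 and 18.8 CPM. The HF.Ctrl mice had 46.1, 99.9 and 18.0 CPM and the HF.SAAR mice 24.3, 53.3 and 30.9 CPM. In both control groups 1 mouse lay below the lowest restricted mouse of the same fat content, and the groups overlapped at either fat content. The log2 fold change was -0.74 (SE 0.69, edgeR adjusted p = 0.743) on the regular-fat and -0.60 (SE 0.68, adjusted p = 0.817) on the high-fat diets. The 95% interval of the former ran from -2.30 to 0.83, which holds both a large drop and a rise. Without HF.Ctrl replicate 2, 1 of the 3 mice highest in acinar RNA, the high-fat value was 0.18 in place of -0.60. Eif4ebp3, on chromosome 18, lies within AC115631.1, a protein-coding gene on the same strand with 4.21 to 7.95 CPM, and the split of reads between them rests on kallisto's assignment.

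Within the family, the summed TPM of the 3 repressors was 144 ± 40.7 in RF.Ctrl, 157 ± 18.6 in RF.SAAR, 144 ± 58.3 in HF.Ctrl and 174 ± 16.2 in HF.SAAR (SD, n = 3 each). TPM carry no TMM scaling, so these sums are not a measure of change between groups. Eif4ebp1 made up 19.1% ± 8.19 of the summed TPM in RF.Ctrl and 28.1% ± 2.53 in RF.SAAR. On the high-fat diets its share was 17.8% ± 2.49 in HF.Ctrl and 31.0% ± 3.74 in HF.SAAR. The high-fat groups did not overlap, as the highest HF.Ctrl mouse was at 20.0% and the lowest HF.SAAR mouse at 26.8%, whereas 1 RF.Ctrl mouse, at 28.5%, lay among the RF.SAAR mice.

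Ddit4 encodes a stress-induced activator of the TSC complex and was the least even of the 8 within the restricted groups, with coefficients of variation of 59.5% in RF.SAAR and 56.04% in HF.SAAR. The RF.SAAR mice had 19.3, 4.35 and 16.5 CPM beside 16.5, 5.68 and 9.18 CPM in RF.Ctrl. The HF.SAAR mice had 27.5, 8.53 and 33.3 CPM beside 10.03, 9.90 and 4.21 CPM in HF.Ctrl. In either restricted group replicate 2 was low, and the remaining HF.SAAR mice were above all mice of the other groups. With that spread, neither the log2 fold change of 1.52 on the high-fat diets (SE 0.70, edgeR adjusted p = 0.428) nor that of 0.36 on the regular-fat diets (SE 0.69, adjusted p = 0.909) passed. The high-fat interval ran from -0.07 to 3.11, and the difference between the responses was 1.16 with an interval of -1.06 to 3.38.

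Of the sestrins, Sesn2 was higher and Sesn1 and Sesn3 were lower in restricted mice, none past the threshold after adjustment. Sesn2, which senses leucine, had 4.01, 4.55 and 4.19 CPM in RF.Ctrl and 7.51, 4.56 and 6.78 CPM in RF.SAAR. It had 5.12, 4.23 and 6.04 CPM in HF.Ctrl and 6.65, 5.37 and 8.76 CPM in HF.SAAR. The regular-fat groups did not overlap, by the margin of 4.55 against 4.56 CPM, and the high-fat groups did. Replicate 2 was again the lowest of both restricted groups. The averaged log2 fold change was 0.50 (SE 0.16, edgeR adjusted p = 0.0861), and without RF.SAAR replicate 2 it was 0.59 with an adjusted p of 0.0369. That was the only call of Sesn2 in the 12 averaged fits that left out 1 mouse, with edgeR adjusted p up to 0.202.

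Sesn3 had 17.9, 24.1 and 21.3 CPM in RF.Ctrl against 17.0, 13.7 and 13.9 CPM in RF.SAAR, without overlap. The high-fat groups overlapped, at 20.8, 15.2 and 23.7 CPM in HF.Ctrl and 17.9, 16.1 and 16.3 CPM in HF.SAAR. The averaged log2 fold change was -0.38 (SE 0.11) with an edgeR adjusted p of 0.0678. In the averaged comparison DESeq2 gave Sesn3 an adjusted p of 0.0481. It called 9.17% of its genes in that comparison and 4.71% in HF.SAAR vs. HF.Ctrl. Averaged over fat, Sesn3 was also called by edgeR without RF.Ctrl replicate 1, with an adjusted p of 0.0499, and without HF.Ctrl replicate 2, with 0.0165. These were 2 of the 12 fits that left out 1 mouse, and the largest adjusted p among the 12 was 0.168.

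Sesn1 had 12.3, 18.8 and 16.9 CPM in RF.Ctrl and 13.5, 8.01 and 9.81 CPM in RF.SAAR, and the groups overlapped by 1 mouse. It had 14.7, 17.0 and 14.8 CPM in HF.Ctrl and 11.5, 14.6 and 15.7 CPM in HF.SAAR. The log2 fold change was -0.61 (SE 0.20, edgeR adjusted p = 0.164) on the regular-fat and -0.15 (SE 0.20, adjusted p = 0.852) on the high-fat diets. Averaged over fat it was -0.38 with an edgeR adjusted p of 0.135, and -0.50 with an adjusted p of 0.0445 without RF.SAAR replicate 1. Of the 12 averaged fits that left out 1 mouse, only that 1 called Sesn1, and the edgeR adjusted p reached 0.285. The lower Sesn1 and Sesn3 values on the regular-fat diets came with the lower blood cell and hepatocyte marker sums given above, and the part of these in them was not tested.

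Of all genes, 18.2% had groups that did not overlap at regular fat and 17.9% at high fat, beside 4 and 1 of the 8. Over the 6 restricted and 6 control mice together no member was free of overlap, against 4.3% of all genes.

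Within the sestrins, Sesn2 held a larger share of the summed level in every restricted mouse than in any control. The summed TPM of the 3 sestrins was 9.23 ± 2.07 in RF.Ctrl, 8.91 ± 2.55 in RF.SAAR, 8.65 ± 1.60 in HF.Ctrl and 10.3 ± 2.05 in HF.SAAR. TPM carry no TMM scaling, so these sums are not a measure of change between groups. For Sesn1, mean TPM was 5.21 in HF.Ctrl and 5.92 in HF.SAAR, whereas mean normalized CPM was 15.5 and 13.9. The share of Sesn2 in the summed TPM was 12.9% ± 1.58 in RF.Ctrl and 23.7% ± 2.15 in RF.SAAR. On the high-fat diets it was 14.9% ± 2.13 in HF.Ctrl and 21.01% ± 3.24 in HF.SAAR. The highest control mouse of the 6 was at 16.5% and the lowest restricted mouse of the 6 at 17.4%, so that the shares did not overlap at either fat content. This share was picked after the values were seen and is given without a test. Sesn1 held 61.4% ± 2.66 of the sum in RF.Ctrl and 51.9% ± 3.61 in RF.SAAR.

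**Figure D4:**
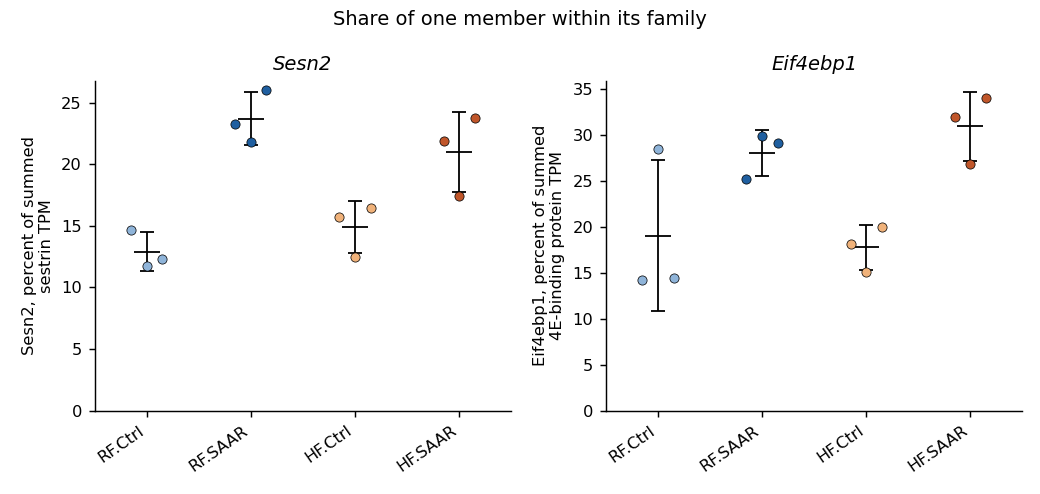
The percent of the summed TPM of its family held by Sesn2 (left) and by Eif4ebp1 (right) in each mouse, by diet group, with points for mice and bars for the mean ± SD of 3 mice. For Sesn2 the 6 restricted mice lie at or above 17.4% and the 6 controls at or below 16.5%, whereas for Eif4ebp1 1 RF.Ctrl mouse reaches 28.5%.

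Deptor, which binds and inhibits mTOR, lay between 111 and 182 CPM in all mice and was not called. The RF.Ctrl mice had 136, 153 and 149 CPM, the RF.SAAR mice 171, 111 and 151, the HF.Ctrl mice 146, 147 and 182, and the HF.SAAR mice 139, 139 and 152. The groups overlapped in every comparison. The 95% interval of the log2 fold change was -0.33 to 0.29 on the regular-fat and -0.45 to 0.17 on the high-fat diets, so that a level over 1.22-fold or under 0.730-fold of the controls lay outside both.

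Scaling by library size alone raised the median of all genes by 0.16 on the log2 scale in restricted mice. Eif4ebp2 and Sesn2 were then called beside Eif4ebp1 in the averaged comparison, with edgeR adjusted p of 0.0250 and 0.0265. Their log2 fold changes were then 0.33 and 0.67, beside 0.17 and 0.50 with TMM, so that they moved about as far as the median of all genes did.

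Dietary fat had no called effect on any of the 8 genes. In HF.SAAR vs. RF.SAAR, where 0.0477% of all genes passed, their log2 fold changes ran from -0.09 for Eif4ebp2 to 0.78 for Ddit4, and the smallest edgeR adjusted p was 0.864. In HF.Ctrl vs. RF.Ctrl edgeR called 0 genes, or 0% of those tested, with 527 at an unadjusted p under 0.05 and 31 called by DESeq2. The 8 genes ran there from -0.38 for Ddit4 to 0.28 for Eif4ebp3, and both of these values changed sign with 1 mouse left out, running from -0.68 to 0.12 for Ddit4 and from -0.49 to 0.70 for Eif4ebp3. In HF vs. RF averaged over diet 0.0409% of all genes passed and the largest value of the 8 was 0.35, for Eif4ebp3, which was -0.32 without the 3 mice highest in acinar RNA and -0.035 without HF.Ctrl replicate 2. The interaction of diet and fat was called for 0.00682% of all genes, and none of the 8 had an unadjusted p under 0.05 in it.

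Most members came from 1 transcript, which held at least 96.6% of the counts of each gene but Sesn1. Of Sesn1, on chr10:41809935-41908424 of GRCm38 (plus strand), the shorter transcript Sesn1-201 held 69.8% of the counts and Sesn1-202, which starts upstream, 30.2%. Sesn1-202 had 4.49, 6.22 and 7.28 CPM in RF.Ctrl and 3.87, 2.41 and 3.45 CPM in RF.SAAR, and these did not overlap. Sesn1-201 had 7.81, 12.6 and 9.61 CPM in RF.Ctrl and 9.67, 5.59 and 6.36 CPM in RF.SAAR, which overlapped. On the high-fat diets both overlapped, at 4.09 ± 1.17 and 3.68 ± 1.20 CPM for Sesn1-202 in HF.Ctrl and HF.SAAR and at 11.4 ± 1.97 and 10.3 ± 1.58 CPM for Sesn1-201. Reads that both transcripts could have given were split by kallisto, and these values carry the uncertainty of that split.

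**Figure D5:**
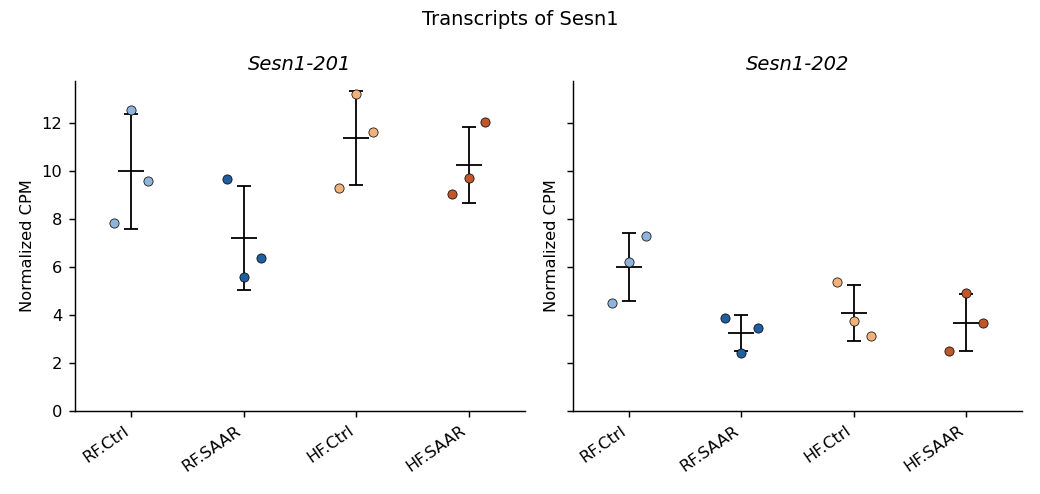
Normalized CPM (y axis, from 0) of the transcripts Sesn1-201 (left) and Sesn1-202 (right) in each mouse, by diet group, with points for mice and bars for the mean ± SD of 3 mice. Sesn1-202 lies between 2.41 and 3.87 CPM in RF.SAAR, below every RF.Ctrl mouse, whereas Sesn1-201 overlaps in all groups.

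Since the 2 transcripts have separate start sites, the RefSeq promoter windows of both are shown, from 250 bases before to 30 after the start (GRCm38.p6, plus strand, 5′ to 3′). The first, at chr10:41810324-41810603, belongs to the upstream start, which RefSeq places 639 bases downstream of the start of Sesn1-202 in the annotation used for the counts. The second, at chr10:41887189-41887468, belongs to the start of Sesn1-201. Capitals mark a match to the FoxO element GTAAACA on the minus strand.
Sesn1, upstream start: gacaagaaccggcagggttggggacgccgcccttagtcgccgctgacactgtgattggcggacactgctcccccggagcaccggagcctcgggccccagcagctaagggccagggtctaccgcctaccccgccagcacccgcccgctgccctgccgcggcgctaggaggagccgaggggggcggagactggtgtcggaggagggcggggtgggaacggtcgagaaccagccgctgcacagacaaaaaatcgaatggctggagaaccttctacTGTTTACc
Sesn1, downstream start: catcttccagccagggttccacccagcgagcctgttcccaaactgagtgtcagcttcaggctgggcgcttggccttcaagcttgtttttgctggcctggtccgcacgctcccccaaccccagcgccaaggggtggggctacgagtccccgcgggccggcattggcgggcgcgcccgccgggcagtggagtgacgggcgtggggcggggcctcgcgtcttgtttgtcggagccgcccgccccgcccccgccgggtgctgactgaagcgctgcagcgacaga
The match lies after the upstream start and the downstream window holds none. Windows of 250 bases before to 50 after the start were at hand for 5 of the 8 genes (Ddit4, Sesn1, Sesn2, Sesn3 and Eif4ebp2), and the element was in 3.65% of all 32851 windows, read on both strands. Neither the C/EBP-ATF response element TGATGNAA, found in 3.97% of all windows, nor the E-box CACGTG, found in 7.15%, was in any window of the 5 genes. These letters in a window are a description and say nothing of binding.

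Among the other genes of the pathway, edgeR called some in the averaged comparison only. Of 74 genes in 7 lists for mTOR subunits, TSC and AMPK, Rag and Ragulator, GATOR and KICSTOR, amino acid sensors, mTORC1 substrates and cap-binding factors, 73 were tested, and none passed in edgeR at either fat content. Of all genes 1.49% and 1.97% passed there. At regular fat 13 of the 73 had an unadjusted p under 0.05, against 13.6% of all genes, and DESeq2 called 3, against 4.85% of its genes. At high fat these counts were 9, against 12.4%, and 3, against 4.71%. Averaged over fat 5 were higher and 0 lower, against 3.22% and 3.7% of all genes, with a median of 0.05 beside 0.00 over all genes tested. There 21 of the 73 had an unadjusted p under 0.05, against 20.3% of all genes, and DESeq2 called 8, against 9.17% of its genes. The 5 called by edgeR were Rragc, a Rag GTPase, Lamtor3 and Lamtor1 of the Ragulator, Eif4g2, a relative of eIF4G, and Eif4enif1, which carries eIF4E into the nucleus. The mean of Rragc went from 36.6 ± 1.75 to 46.9 ± 2.15 CPM on the regular-fat and from 37.3 ± 2.11 to 46.6 ± 0.684 CPM on the high-fat diets. The averaged log2 fold change was 0.34 for Rragc (edgeR adjusted p = 0.00398), 0.39 for Lamtor3 and 0.32 for Eif4g2, and it was 0.34 for Lamtor1 and 0.31 for Eif4enif1.

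Genes known to share the regulators of the brakes were called in part. Of 15 ATF4 target genes tested, 2 passed upward and 0 downward at regular fat, where 0.6% and 0.886% of all genes did. At high fat 6 passed upward and 0 downward, beside 1.01% and 0.961% of all genes, and the same 6 were called in the averaged comparison. At an unadjusted edgeR p under 0.05 were 6 of the 15 at regular fat and 7 at high fat, beside 13.6% and 12.4% of all genes. DESeq2 called 5 and 6 of the list, beside 4.85% and 4.71% of its genes. Atf5, a transcription factor of the stress response, rose from 229 ± 23.9 to 422 ± 34.9 CPM on the regular-fat and from 168 ± 17.2 to 537 ± 93.3 CPM on the high-fat diets. Psat1, an enzyme of serine synthesis, rose from 2.98 ± 1.70 to 15.8 ± 4.24 CPM and from 1.28 ± 0.552 to 25.2 ± 6.04 CPM. Mthfd2, a mitochondrial folate enzyme, rose from 1.08 ± 0.144 to 12.7 ± 6.19 CPM on the high-fat diets. The median of the list was 0.41 and 1.17 on the log2 scale at regular and high fat. Beside it, Ddit4 was at 0.36 and 1.52, Sesn2 at 0.56 and 0.44 and Eif4ebp1 at 0.42 and 0.83.

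Among 5 other brakes and stress partners, Gadd45b, a stress-induced activator of MAP kinase signaling, was called higher at regular and at high fat. Of all genes 0.6% and 1.01% were called higher there. It rose from 1.17 ± 0.178 to 5.80 ± 2.14 CPM on the regular-fat and from 2.03 ± 1.22 to 9.95 ± 2.60 CPM on the high-fat diets. None of 10 p53 target genes passed on the regular-fat diets, on the high-fat diets or averaged. In that order 2, 1 and 2 had an unadjusted p under 0.05, beside 13.6%, 12.4% and 20.3% of all genes. DESeq2 called 1, 0 and 2 of them, beside 4.85%, 4.71% and 9.17% of its genes. Of 15 glucocorticoid and FoxO target genes none passed on either fat content. At regular and high fat 2 and 3 had an unadjusted p under 0.05, beside the 13.6% and 12.4% of all genes. DESeq2 called 1 and 1 of them, beside the 4.85% and 4.71% of its genes. Averaged over fat Pdk4, a brake on pyruvate oxidation, was higher by 1.97 (edgeR adjusted p = 0.0226) and Klf9 lower, at -0.28 (adjusted p = 0.0499). In that comparison 3.22% of all genes were called higher and 3.7% lower.

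The genes whose log2 CPM followed Ddit4, Sesn2 and Eif4ebp3 most closely over the 12 mice are named as a description, since the mice share their diet groups. Nearest to Ddit4 were Nfkbia, which encodes the inhibitor IκBα, at a Pearson r of 0.913, Tspan13 at 0.905 and Slc25a12 at 0.898. Nearest to Sesn2 were Ctns, the lysosomal cystine exporter, at 0.923, Ptpn1 at 0.907 and Flcn, the folliculin gene of the Rag pathway, at 0.900. Nearest to Eif4ebp3 were Mrpl46 at 0.917, Lsm7 at 0.888 and Bmper at 0.872. Chosen after the values were seen, Mmp19 followed Sesn3 more closely, at 0.968, and Rplp0 and Ctsz followed Eif4ebp1, at 0.961 and 0.958. Among the 8 genes themselves r ran from -0.729 between Eif4ebp2 and Eif4ebp3 to 0.707 between Sesn2 and Eif4ebp2, and was 0.590 between Ddit4 and Sesn2.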

How the data were processed

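Liver RNA of 12 mice was sequenced after polyA selection. Per the labels and the study's methods, the authors trimmed adapters with cutadapt and pseudoaligned to Ensembl's mouse transcripts with kallisto. Estimated counts as deposited are not normalized between mice, and the deposited TPM are these counts per effective length, scaled to the same sum in each mouse. Transcripts were summed per gene through GENCODE (GRCm38), which matched 116816 of 118489 transcripts. The 1673 others, with 1.08% of all counts, were left out. Depth was 16203094 to 21230092 counts per mouse, and errors come from the variation over mice.

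Rounded gene counts were analyzed in R 4.3.3 with edgeR 4.0.16 (TMM, filterByExpr, robust quasi-likelihood F-test, all 12 mice, a coefficient per group, Benjamini-Hochberg adjustment over all genes of a comparison, threshold 0.05). The SE is the log2 fold change divided by the square root of F. Alternatives were RLE factors, library size alone, other filters, effective length offsets, the compared groups alone, the most abundant transcript, acinar genes or mice left out, each mouse left out and DESeq2 1.42.0. The fit was tested on simulated data. Replicate numbers follow accession order and only name mice. The members, lists, motifs and shares were chosen with earlier results of these data known. Named beside the members are up to 3 called genes of a list and comparison with the smallest p, and for Ddit4, Sesn2 and Eif4ebp3 the 3 genes with the highest Pearson r, since fewer than 2 members were called. One listed gene, Kics2, had no match, and Stc2 did not pass the filter. Promoter windows are from RefSeq, with none used here for Deptor, Eif4ebp1 and Eif4ebp3.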

Additional observations from a re-analysis of the deposited data

How the results depend on the processing

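No member was called in RF.SAAR vs. RF.Ctrl, in a comparison of fat or in the interaction under any alternative. In HF.SAAR vs. HF.Ctrl 0 members in place of 1 were called with effective length offsets, with the compared groups alone, without the 3 mice highest in acinar RNA and with the most abundant transcript, and 0 to 1 with 1 mouse left out. There Eif4ebp1 kept its direction, at 0.74, 0.82, 0.96 and 0.88 on the log2 scale. Averaged over fat 3 were called with library size alone, 2 with DESeq2 and 1 to 2 with 1 mouse left out. With library size alone the small values of Sesn1 in HF.SAAR vs. HF.Ctrl (0.022) and of Deptor at regular fat (0.15), at high fat (0.016) and averaged (0.085) turned positive, within the shift of all genes. Eif4ebp3 in HF.SAAR vs. RF.SAAR was -0.16 without the 3 mice highest in acinar RNA. With 1 mouse left out, values of the restriction comparisons and of HF.SAAR vs. RF.SAAR that changed sign ran from -0.16 to 0.14 for Deptor in RF.SAAR vs. RF.Ctrl, from -0.17 to 0.13 for Deptor and -0.065 to 0.289 for Sesn2 in HF.SAAR vs. RF.SAAR, and from -1.01 to 0.18 for Eif4ebp3 in HF.SAAR vs. HF.Ctrl. In the interaction they ran from -0.33 to 0.021 for Sesn2, -0.29 to 0.013 for Deptor and -0.27 to 0.92 for Eif4ebp3. In HF.Ctrl vs. RF.Ctrl they ran from -0.68 to 0.12 for Ddit4, -0.21 to 0.086 for Sesn1, -0.23 to 0.078 for Sesn3, -0.27 to 0.19 for Eif4ebp1, -0.022 to 0.11 for Eif4ebp2 and -0.49 to 0.70 for Eif4ebp3. In HF vs. RF averaged over diet they ran from -0.0055 to 0.45 for Ddit4, -0.031 to 0.12 for Sesn3, -0.025 to 0.12 for Deptor, -0.058 to 0.0076 for Eif4ebp2 and -0.035 to 0.56 for Eif4ebp3. The other alternatives also changed the sign of Sesn1, Sesn3, Eif4ebp1 and Eif4ebp3 in the former comparison and of Sesn3, Deptor, Eif4ebp2 and Eif4ebp3 in the latter. Apart from the fewer mice in some, the cause of these changes was not tested. No paired analysis was run, because the labels carry no replicate numbers and name no sets of mice. Mice given the same replicate number here have consecutive numbers in their titles, and what those numbers mark is not stated. With 3 mice a group, the 95% interval of Ddit4 at regular fat ran from 0.433-fold to 3.81-fold. Over all genes, 218, 289 and 1015 were called at regular fat, at high fat and averaged, 88, 148 and 472 of them higher. Library size alone called 425, 719 and 2449, of which 84.5%, 88.9% and 88.8% were higher, and the 36098 transcripts 52, 127 and 537. DESeq2 called 591 and 595 at regular and high fat, and the compared groups alone 190 at high fat. With 1 mouse left out the counts went down to 87 at regular fat (without RF.Ctrl replicate 3), 110 at high fat and 655 averaged (both without HF.Ctrl replicate 1), and without the 3 mice highest in acinar RNA to 30 at high fat and 380 averaged.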
